A study of Mus musculus with 4 samples.

Results

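The endocannabinoid system genes described here were 7 of the 31053 genes in the count tables, taken from a list: the cannabinoid receptor gene Cnr1, the 2-AG synthesis genes Dagla and Daglb, the 2-AG breakdown genes Mgll and Abhd6, and the anandamide genes Napepld and Faah. All 7 had UMIs in each of the 4 libraries. The libraries were single-nucleus RNA-seq of brain from male C57BL/6J mice that received an AAV9 vector in the cisterna magna at 4 weeks of age and were killed at 8 weeks. The AAV-CTRL vector encoded the part of mouse VEGFR3 with Ig domains 4 to 7, which does not bind ligand, and the AAV-VEGF-C vector encoded full-length mouse VEGF-C, the growth factor of lymphatic vessels. Brains of 5 mice per vector were pooled, and each pool gave 1 library labelled cortex and 1 labelled striatum, so both region labels of a vector share the same mice. With 1 library per group there was no replicate check, no test between groups was made, and every interval below covers counting error only.

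Cnr1 encodes CB1, a Gi-coupled receptor found mostly on presynaptic terminals, where its activation lowers transmitter release. Its lipid ligands 2-arachidonoylglycerol (2-AG) and anandamide are made on demand, largely in the postsynaptic cell, and act backwards across the synapse. Diacylglycerol lipases make 2-AG, with DAGLα serving most synaptic 2-AG in the adult brain and DAGLβ known for its role in microglia and macrophages, and MGLL and ABHD6 hydrolyse it. NAPE-PLD is one route to anandamide, and FAAH degrades anandamide.

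Of the deposited barcodes, 72813 nuclei were kept, 16199 to 21307 per library, with median UMI counts of 2123 to 2651 and 58078434 to 70071191 UMIs per library. Nuclei were clustered without the 7 genes and their pathway partners, so class levels do not follow from how classes were built. In all, 32 classes named "X-like" held 70752 nuclei. Most were named from marker genes, while the unresolved neuron-like class of 15354 nuclei held neuronal clusters that no marker list named. Levels are given as CPM, the UMIs of a gene scaled to a total of 1000000 UMIs in its class or library, with the cortex pair before the striatum pair and AAV-CTRL before AAV-VEGF-C in each, unless stated. The region labels went against striatal marker genes. Ppp1r1b, which encodes DARPP-32 of striatal projection neurons, stood at 63.3, 75.7, 18.9 and 18.6 CPM, and striatal projection neuron (SPN)-like nuclei of the D1 type numbered 558, 707, 218 and 155. Libraries labelled striatum held thalamic-type neuron-like nuclei (1009 and 970), cerebellar granule neuron-like nuclei (148 and 130) and dopaminergic neuron-like nuclei (34 and 41), so "striatum" below means the library label. Vegfc, the gene carried by the AAV-VEGF-C vector, was at 12.3, 11.7, 13.0 and 11.8 CPM, and whether vector transcripts would be counted under it is not stated in the sources used here.

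Nuclei that should lack neuronal transcripts still carried them, which limits how low levels can be read. In oligodendrocyte-like nuclei, Snap25, a synaptic vesicle fusion gene, stood at 106, 108, 94.5 and 94.0 percent of its level over the whole library, and Rbfox3, a neuronal splicing regulator, at 44.0, 43.0, 33.2 and 36.3 percent. Slc17a7, the vesicular glutamate transporter of cortical excitatory neurons, stood at 113, 104, 80.7 and 85.9 percent. By the same measure Dagla was the lowest of the 7 genes, at 41.5, 36.8, 39.0 and 32.0 percent, and Napepld the highest, at 189.9, 191, 162 and 146 percent. A Cnr1 level near or below that of oligodendrocyte-like nuclei could therefore not be told apart from background. That reference differed by region label: 81.7, 75.9, 34.4 and 30.0 CPM. It was no floor, since ependymal-like nuclei had 18.1 and 34.9 CPM in the cortex libraries. For Napepld and Faah, SPN-like nuclei also lay below the oligodendrocyte-like level. Median depth was 1726 UMIs in oligodendrocyte-like and 5252 in Rorb-type excitatory neuron-like nuclei, and its part was not tested.

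Cnr1 (chromosome 4, 33924593 to 33948831, plus strand, GRCm38) was highest in a small class of Sncg and Cck interneuron-like nuclei, a name that stands for inhibitory basket-type cells classically known for dense CB1. Of its naming markers, Adarb2, Cxcl14, Npas1 and Col19a1 were among the 10 leading genes of its 1 cluster, which also held Vip but neither Sncg nor Cck. In the cortex libraries Cck was at 1332 and 2158 CPM in the class, against 364 and 427 CPM in Vip interneuron-like nuclei, Vip was at 446 and 761 CPM against 1413 and 1877 CPM, and Sncg had 4 and 1 UMIs. The 54 nuclei of the class in the cortex AAV-VEGF-C library had a Cnr1 level of 2499 (95% interval 2324 to 2684) CPM. The class fell below the minimum of 50 nuclei elsewhere, with 1902 (95% interval 1723 to 2094) CPM over 44 nuclei of the cortex AAV-CTRL library and 1424 (95% interval 1104 to 1809) CPM over 8 nuclei of the striatum AAV-CTRL library. Across libraries the class made up 0.147% of kept nuclei and held 6.44% of all Cnr1 UMIs. After each nucleus was thinned to 1000 UMIs, 88.9 percent of the 54 nuclei had a Cnr1 UMI (all 54 unthinned), against 6.90 percent of oligodendrocyte-like nuclei of the same library. Median depths were 5455.5 and 1613 UMIs per nucleus.

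The other cortical interneuron classes stepped down from there. Vip interneuron-like nuclei, which largely inhibit other interneurons, had 464 and 372 CPM in the cortex libraries, and Lamp5 and Ndnf interneuron-like nuclei 185 and 252 CPM. The latter class was uneven. Over the 4 libraries together, its cluster led by Npy, Kit and Pde11a (251 nuclei) had 256 CPM. Its cluster led by Hapln1, Pde11a and Hcrtr2 (61 nuclei) had 37.0 CPM, below the oligodendrocyte-like level of the cortex libraries. Sst interneuron-like nuclei had 107 and 94.4 CPM, close to the oligodendrocyte-like reference of 81.7 and 75.9 CPM, and Pvalb interneuron-like nuclei, the fast-spiking cells, were below it at 42.7 and 40.8 CPM. Within both cortex libraries the intervals of neighbours in this order (Vip, Lamp5 and Ndnf, Sst, Pvalb) did not overlap, so the order held against counting error in each.

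Among excitatory neurons of the cortex, the layer-named types had Cnr1 levels that this reference could not tell apart from background. Upper layer excitatory neuron-like nuclei had 66.3 and 69.8 CPM, Rorb-type 45.0 and 45.5 CPM and layer 6-type 37.2 and 34.5 CPM, none of them above oligodendrocyte-like nuclei of the same libraries. Excitatory neuron-like nuclei assigned to no subtype had 90.4, 86.6, 133 and 144 CPM, and in the striatum libraries these values were well above the oligodendrocyte-like 34.4 and 30.0 CPM. Within this class, the largest cluster (Nrgn, Egr1 and Tbr1, with a median of 1447 UMIs per nucleus) had 145 and 139 CPM in the cortex libraries, with intervals above the oligodendrocyte-like ones, and a cluster led by Rspo2, Gm28928 and AC129186.1 had 93.9 and 95.5 CPM. Of the neuronal classes with at least 50 nuclei in a library, the thalamic-type one was lowest, at 17.5 and 16.8 CPM in the striatum libraries, while non-telencephalic astrocyte-like nuclei had 29.8 and 21.9 CPM there. Within the thalamic type, a cluster led by Gm19303, Gm32647 and Gm29478 was higher, at 46.5 and 44.5 CPM. Cerebellar granule neuron-like nuclei, whose parallel fibres are a known site of CB1, had 256 and 117 CPM.

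**Figure D1:**
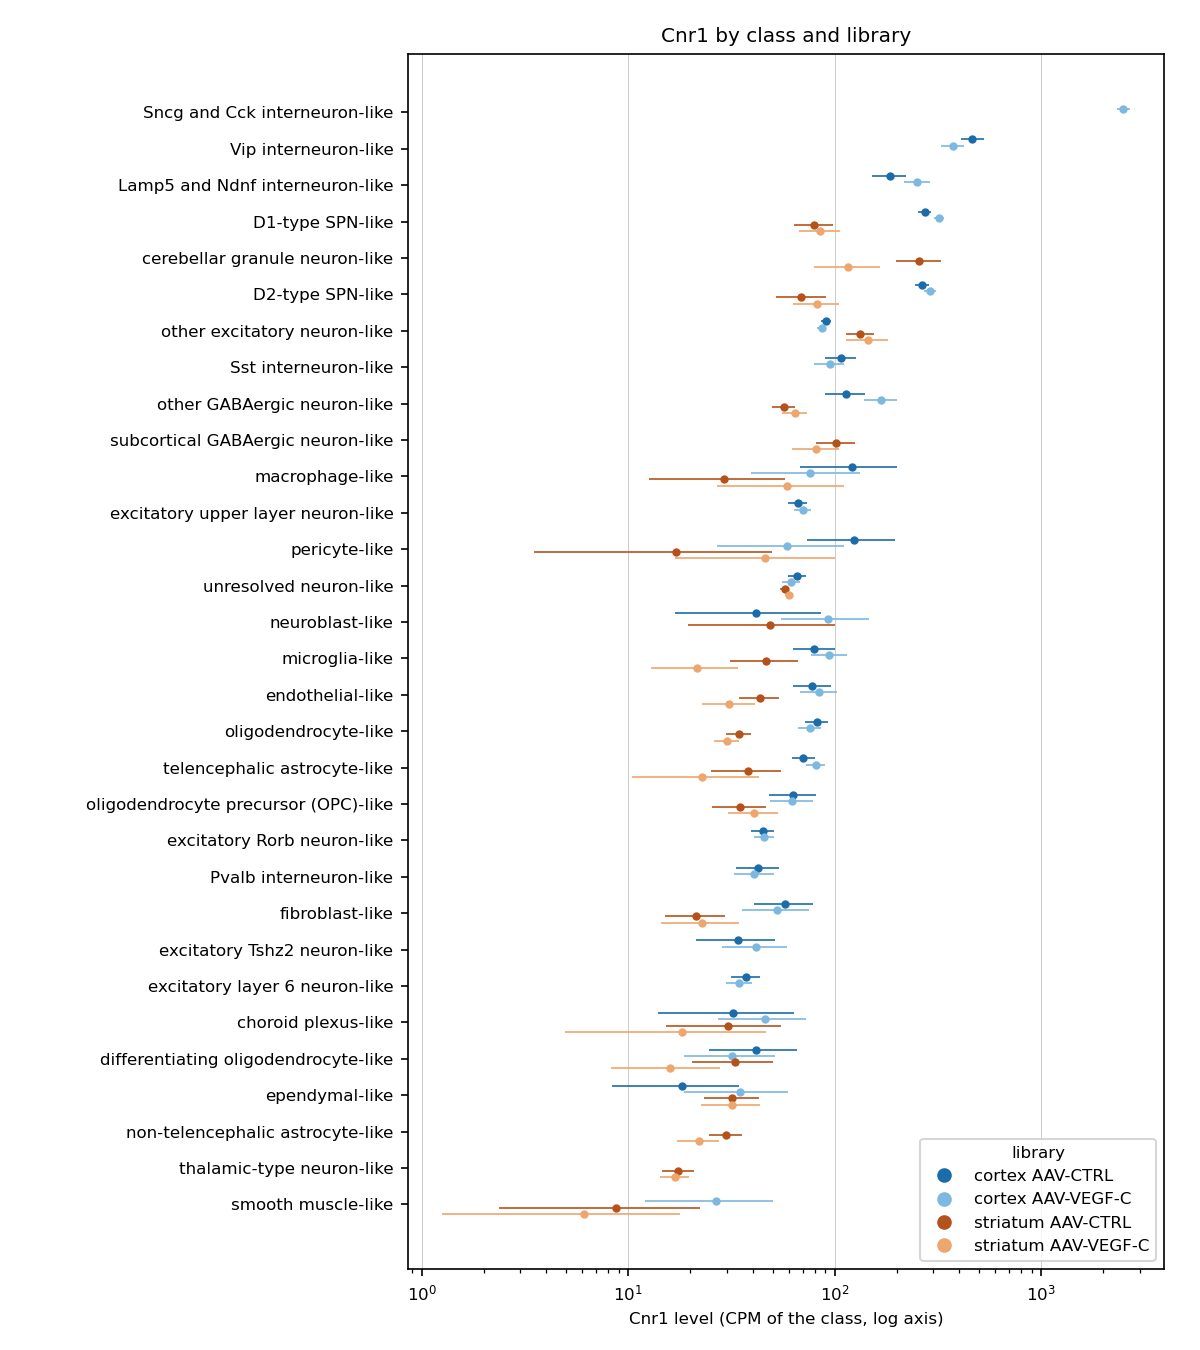
Level of Cnr1 (CPM of the class, log axis) in each class with at least 50 nuclei in a library, 1 point per library with its exact Poisson 95% interval and classes ordered by their mean over libraries. Sncg and Cck interneuron-like nuclei stand at 2499 CPM, apart from every other class, and oligodendrocyte-like, microglia-like and endothelial-like nuclei of the cortex libraries sit to the right of those of the striatum libraries.

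Cnr1 was also high in SPN-like nuclei, where it differed between clusters of the same type. D1-type SPN-like nuclei had 273, 319, 79.1 and 84.5 CPM and D2-type 265, 289, 69.0 and 82.1 CPM, so both were high in the cortex libraries and low in the striatum libraries, with overlapping intervals between the types in each library. The 2 largest clusters of each type, 4 of the 8 SPN-like clusters, were compared after their Cnr1 levels had been seen. The larger D1-type cluster (leading genes Gm10754, Sh3rf2 and Rarb) had 335, 376 and 164 CPM in the first 3 libraries, and the smaller one (Rarb, Pdyn and Gm10754) had 56.0, 71.1, 52.2 and 74.9 CPM in all 4. The log2 ratio of larger over smaller was 2.58, 95% interval 1.96 to 3.28, in the cortex AAV-CTRL library, 2.40, 95% interval 1.86 to 3.00, in the cortex AAV-VEGF-C library and 1.65, 95% interval 0.94 to 2.40, in the striatum AAV-CTRL library.

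The D2 type held a like pair. The larger D2-type cluster (Drd2, Adora2a and Penk) had 369 and 357 CPM of Cnr1 in the cortex libraries, and the smaller one (Adora2a, Penk and Drd2) had 32.4, 53.2, 36.5 and 45.9 CPM. The log2 ratios were 3.51, 95% interval 2.75 to 4.39, and 2.75, 95% interval 2.14 to 3.43. Among genes with at least 50 UMIs over both clusters, Cnr1 ranked 3 of 5756 and 6 of 7051 by this ratio for the D2 type, and 14 of 6934, 18 of 8270 and 3 of 3094 for the D1 type. In the cortex libraries the smaller clusters of both types lay below the oligodendrocyte-like Cnr1 level of 81.7 and 75.9 CPM. The size of the ratios there therefore rests on values that could not be told apart from background. In the striatum AAV-CTRL library the smaller D1-type cluster had 52.2 CPM, above the oligodendrocyte-like 34.4 CPM. Since the clusters were compared with their Cnr1 levels known, a high rank was favoured in advance, and the ranks are descriptions only. The other 4 SPN-like clusters lay on both sides. Another D1-type cluster (Drd3, Rarb and Sh3rf2) had 78.8, 43.9 and 37.0 CPM in the first 3 libraries. Another cluster named D2-type (Sh3rf2, Rgs9 and Rarb), whose nuclei had a median of 1821 UMIs, had 288 and 271 CPM in the cortex libraries. Its leading genes held Drd1 beside Drd2, Adora2a and Penk, and whether it mixes both types was not tested. It made up 325 of the 1604 nuclei of the D2-type class. The last 2, both of the D2 type, had 85 and 66 nuclei in all and Cnr1 at 32.5 and 174 CPM over the 4 libraries together.

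The other 6 genes differed less between these clusters, which had been compared with Cnr1 in view. Mgll leaned the other way, at 96.9, 80.3 and 95.3 CPM in the larger and 147, 86.4, 141 and 76.7 CPM in the smaller D1-type cluster. Dagla was higher in the larger D1-type cluster in the cortex AAV-CTRL library (log2 0.73, 95% interval 0.12 to 1.40) and the striatum AAV-CTRL library (log2 1.254, 95% interval 0.46 to 2.07), while in the D2 type its log2 ratios were 0.053, 95% interval -0.53 to 0.67, and 0.30, 95% interval -0.31 to 0.97. In the cortex AAV-VEGF-C library the Dagla ratio of the D1 type was 0.45, 95% interval -0.13 to 1.09. Abhd6 was lower in the larger D1-type cluster in the cortex AAV-VEGF-C library, at 48.7 against 94.0 CPM, but about level in the cortex AAV-CTRL library, at 48.0 against 48.0 CPM.

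Cluster make-up moved with the region label. The larger D1-type cluster held 427, 578, 57 and 26 nuclei of the 558, 707, 218 and 155 in its class, and the smaller one 77, 77, 103 and 91. For the D2 type the larger cluster held 306, 430, 30 and 30 nuclei and the smaller one 95, 87, 87 and 63. In the smaller clusters Cnr1 lay between 32.4 and 74.9 CPM in every library, and within the larger D1-type cluster it was also lower under the striatum label, at 164 CPM against 335 CPM with AAV-CTRL. The part of cluster make-up in the class difference was not tested.

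**Figure D2:**
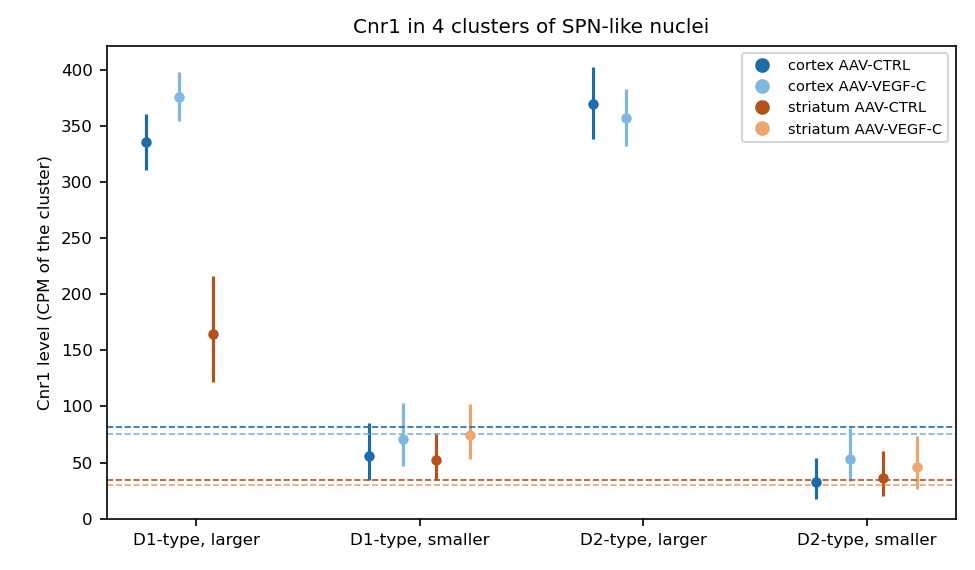
Level of Cnr1 (CPM of the cluster, linear axis) in the 2 largest clusters of D1-type and D2-type SPN-like nuclei, with exact Poisson 95% intervals, for clusters with at least 50 nuclei in a library, and dashed lines at the oligodendrocyte-like level of each library. The larger clusters lie between 164 and 376 CPM and the smaller ones between 32.4 and 74.9 CPM.

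In several glial and vascular classes Cnr1 lay near the oligodendrocyte-like level of the same library. In the cortex libraries, microglia-like nuclei had 79.8 and 94.4 CPM, endothelial-like 78.0 and 83.8 CPM, and telencephalic astrocyte-like 70.4 and 81.1 CPM, all with intervals that overlapped the oligodendrocyte-like one. In the striatum libraries the same classes stood at 46.2 and 21.6 CPM, 43.3 and 30.9 CPM and 38.1 and 22.7 CPM. These values could not be told apart from background. Several other non-neuronal classes had lower values in the cortex libraries, some with intervals that overlapped the oligodendrocyte-like one. These were 57.4 and 52.6 CPM in fibroblast-like, 32.3 and 45.8 CPM in choroid plexus-like, 41.6 and 31.9 CPM in differentiating oligodendrocyte-like and 18.1 and 34.9 CPM in ependymal-like nuclei. Smooth muscle-like nuclei had 26.5 CPM in the cortex AAV-VEGF-C library. Macrophage-like nuclei ran from 29.1 to 121 CPM over the 4 libraries and pericyte-like nuclei from 17.0 to 124 CPM. Their highest values were above the oligodendrocyte-like level of any library, but these classes held few Cnr1 UMIs, 44 and 36 in all.

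Dagla (chromosome 19, 10245265 to 10304877, minus strand), the DAGLα gene, was highest in excitatory neurons among the named classes. Layer 6-type excitatory neuron-like nuclei had 139 and 126 CPM, thalamic-type neuron-like nuclei 125 and 131 CPM, and Rorb-type excitatory neuron-like nuclei 127 and 94.4 CPM. Oligodendrocyte-like nuclei were at 38.1, 30.6, 24.1 and 20.9 CPM, and the intervals of the 3 neuronal classes lay above theirs in every library compared. D1-type SPN-like nuclei had 98.4, 85.8, 70.9 and 79.1 CPM, again above that reference in all 4 libraries.

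Cortical interneurons held less Dagla than the layer 6 and Rorb types of the same libraries. In the cortex libraries Sst interneuron-like nuclei had 69.0 and 69.1 CPM, Pvalb interneuron-like 68.6 and 69.3 CPM and Vip interneuron-like 39.8 and 51.9 CPM. Sncg and Cck interneuron-like nuclei, highest for the receptor, had 29.8 (95% interval 13.6 to 56.5) CPM of Dagla, within the range of oligodendrocyte-like nuclei. Microglia-like nuclei had 92.7, 85.7, 78.1 and 74.5 CPM and both astrocyte-like classes 50.4 to 74.8 CPM.

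Daglb (chromosome 5, 143464584 to 143505942, plus strand, overlapping Rac1 on the other strand) was highest in microglia. Microglia-like nuclei, the resident phagocytes of brain, had 211, 169, 187 and 208 CPM, and in each library their interval lay above that of every other class, except macrophage-like nuclei of the cortex AAV-VEGF-C library. Macrophage-like nuclei had 48.6, 94.7, 79.9 and 84.7 CPM, next by the mean over libraries. The microglia-like class made up 3.02% of kept nuclei and held 6.95% of Daglb UMIs. After thinning, 19.4, 16.9, 17.5 and 16.2 percent of microglia-like nuclei had a Daglb UMI (26.1, 22.0, 22.2 and 30.4 percent unthinned), against 3.32, 2.46, 2.74 and 3.05 percent of oligodendrocyte-like nuclei.

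Other classes held less Daglb by their means over libraries. Cerebellar granule neuron-like nuclei had 72.1 and 48.9 CPM over 18 and 13 UMIs, and ependymal-like nuclei 60.5, 37.5, 40.6 and 47.5 CPM. Oligodendrocyte-like nuclei had 34.1, 26.9, 26.2 and 31.0 CPM, D1-type SPN-like nuclei 24.9, 29.8, 25.5 and 34.7 CPM, and layer 6-type excitatory neuron-like nuclei, the highest of the cortical neuron classes, 53.3 and 52.4 CPM. Whether the counting used strand is not stated in the sources used here, so reads of Daglb and of Rac1 in the overlap cannot be told apart. The same limit holds for Dagla with AC132148.1, Napepld with Gm15719 and Mgll with Gm26588 and Gm43937, which overlap them on the other strand.

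Mgll (chromosome 6, 88724412 to 88828360, plus strand), whose product removes most 2-AG in brain, was highest in telencephalic astrocyte-like nuclei. These had 442, 402, 492 and 438 CPM, about level in the 4 libraries. Non-telencephalic astrocyte-like nuclei had 135 and 131 CPM in the striatum libraries, so the 2 astrocyte-like classes of the same library differed by over 3-fold and their intervals were far apart. After thinning, 31.4 and 30.9 percent of the telencephalic and 11.5 and 12.6 percent of the non-telencephalic class had a Mgll UMI in those libraries (51.2 and 55.8 percent and 21.9 and 23.0 percent unthinned).

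Among neurons, Lamp5 and Ndnf interneuron-like nuclei stood out for Mgll, at 418 and 337 CPM. Sncg and Cck interneuron-like nuclei had 229.7 (95% interval 171 to 303) and 258 (95% interval 204 to 322) CPM in the cortex libraries. Rorb-type excitatory neuron-like nuclei had 219 and 219 CPM and layer 6-type at 186 and 195 CPM, while Tshz2-type ones had 57.0 and 65.0 CPM, so excitatory classes of the same library differed by over 3-fold. SPN-like nuclei of the D1 type had 100.2, 80.2, 101 and 80.2 CPM.

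Mgll also differed along the oligodendrocyte lineage. Differentiating oligodendrocyte-like nuclei had 224, 189.8, 158 and 214 CPM and oligodendrocyte precursor-like nuclei 157, 172, 141 and 144 CPM, against 73.4, 76.5, 34.7 and 42.2 CPM in mature oligodendrocyte-like nuclei. The intervals of the mature class lay below those of both others in all 4 libraries. The 3 annotated genes Gm44005, Gm43999 and Gm44001 overlap Mgll on the same strand, and reads they share with it cannot be separated.

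Abhd6 (chromosome 14, 8002902 to 8056763, plus strand), a second 2-AG hydrolase that sits mainly in postsynaptic neurons, was spread across classes. Lamp5 and Ndnf interneuron-like nuclei had 134 and 113 CPM, choroid plexus-like nuclei 109, 117, 133 and 118 CPM and upper layer excitatory neuron-like nuclei 106 and 103 CPM. These highest classes overlapped in their intervals. Oligodendrocyte-like nuclei had 55.6, 46.2, 37.5 and 39.9 CPM, so the range across classes was narrower than for Cnr1 or Mgll.

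Napepld (chromosome 5, 21662901 to 21701396, minus strand) had its highest class level in thalamic-type neuron-like nuclei, at 61.9 and 60.1 CPM. This class made up 2.75% of kept nuclei and held 17.7% of Napepld UMIs. Fibroblast-like nuclei had 37.8, 35.1, 38.2 and 55.6 CPM and oligodendrocyte-like nuclei 32.3, 34.7, 39.7 and 40.1 CPM. Napepld was therefore the one member whose level in oligodendrocyte-like nuclei exceeded the library level in all 4 libraries.

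SPN-like nuclei were at the other end for Napepld. D1-type SPN-like nuclei had 3.29, 3.75, 4.55 and 7.59 CPM and D2-type 6.37, 5.58, 6.51 and 7.95 CPM, and their intervals lay below those of oligodendrocyte-like nuclei in every library. Cortical interneuron classes lay between 6.62 and 23.1 CPM. With so few UMIs, the order among these low classes was not resolved.

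Faah (chromosome 4, 115967145 to 116017926, minus strand) was high in cortical excitatory neurons. Rorb-type excitatory neuron-like nuclei had 120.5 and 114 CPM, upper layer ones 120.5 and 112 CPM and layer 6-type 86.5 and 81.7 CPM. The first 2 classes did not differ beyond their intervals, and both lay above the layer 6 type. Oligodendrocyte-like nuclei had 65.4, 57.8, 48.5 and 54.9 CPM, above telencephalic astrocyte-like nuclei at 30.7, 34.8, 20.4 and 12.6 CPM and above D1-type SPN-like nuclei at 23.0, 25.2, 18.2 and 29.3 CPM in every library.

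**Figure D3:**
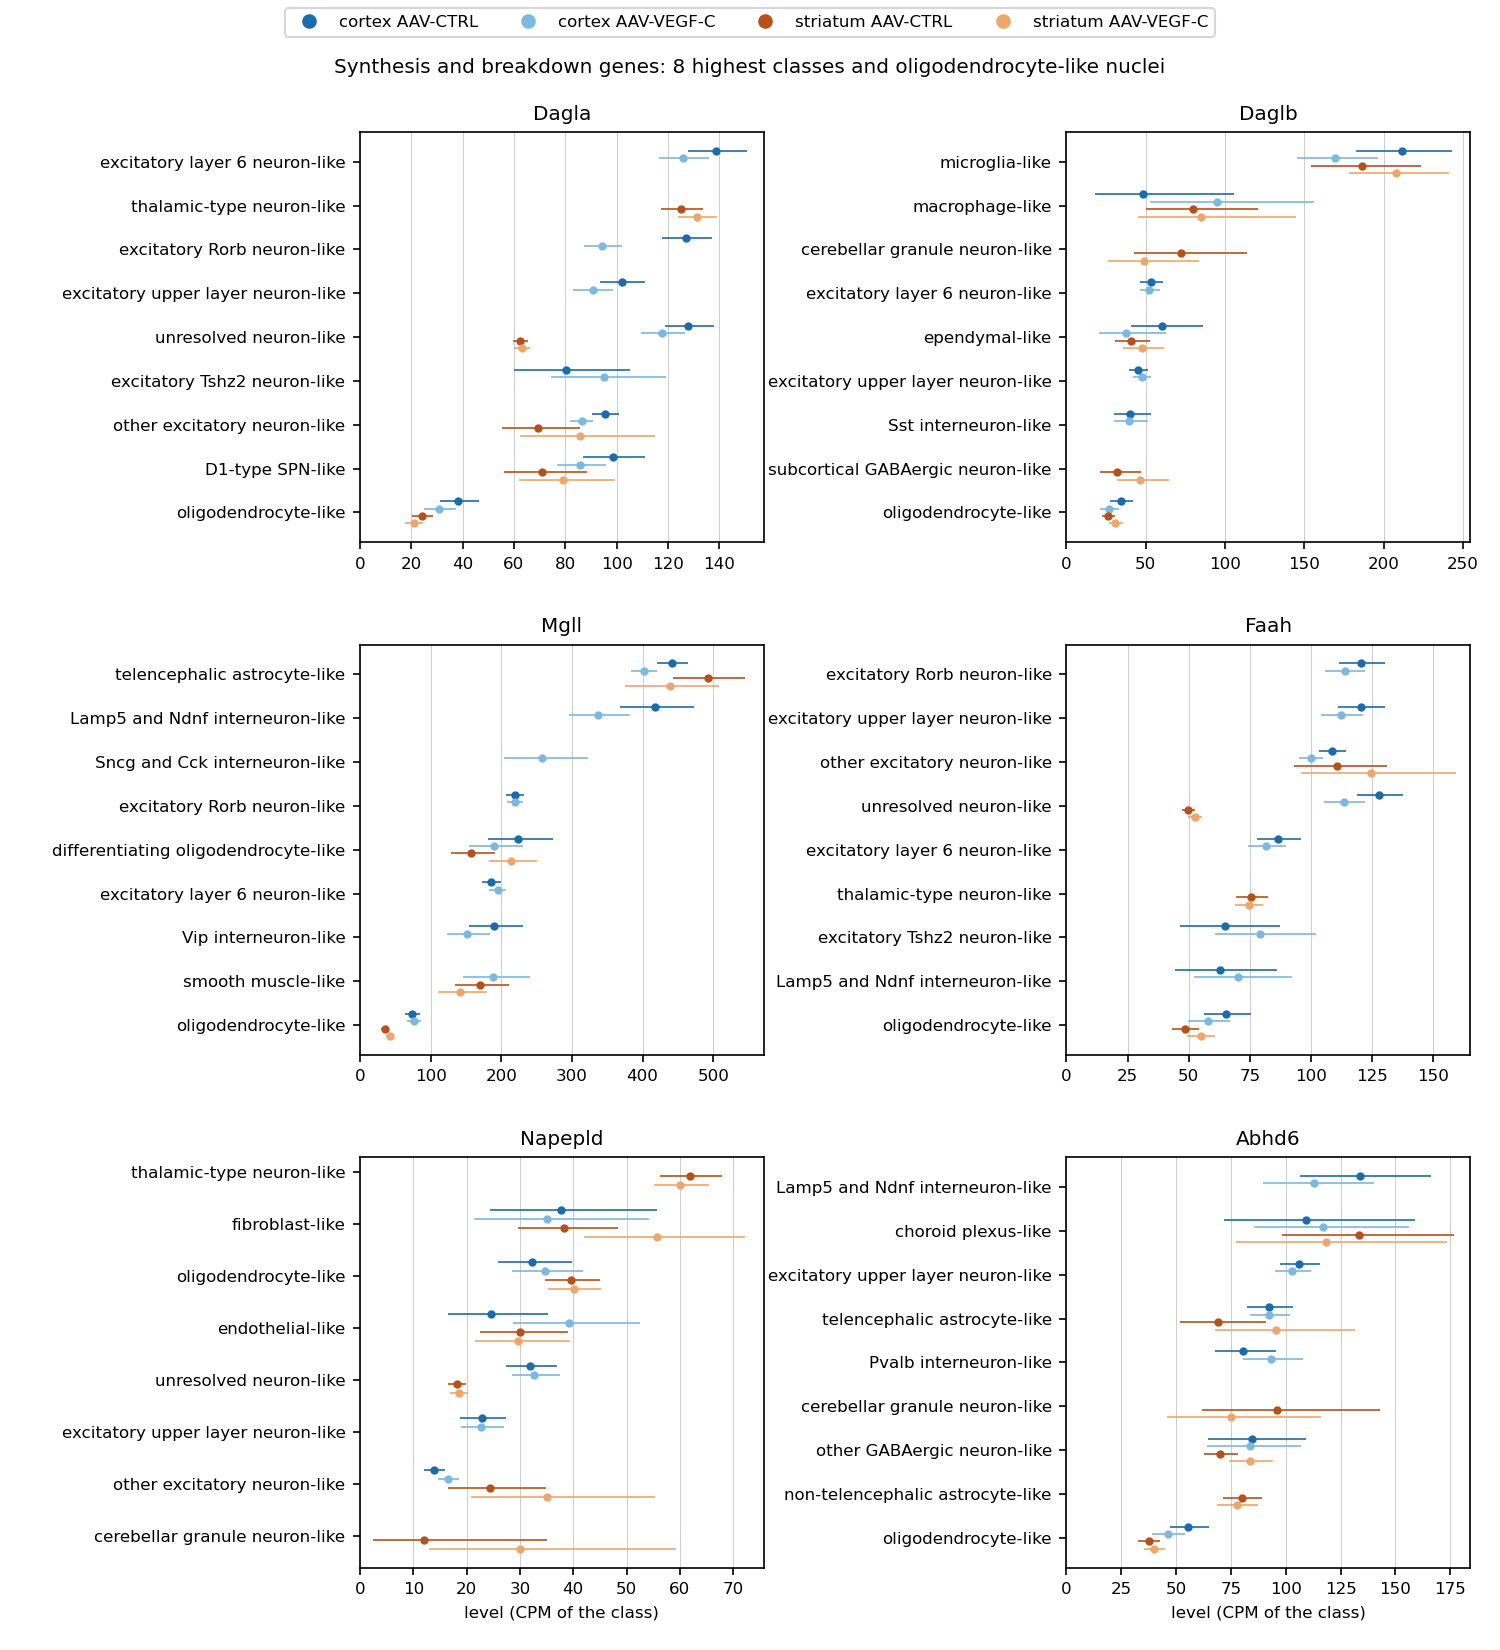
Levels of the 6 synthesis and breakdown genes (CPM of the class, linear axes from 0 that differ between panels) in the 8 classes with the highest mean and in oligodendrocyte-like nuclei, with 1 point per library and its exact Poisson 95% interval. Daglb is led by microglia-like nuclei at 169 to 211 CPM, Mgll by telencephalic astrocyte-like nuclei at 402 to 492 CPM, and Napepld by thalamic-type neuron-like nuclei at 60.1 and 61.9 CPM.

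A cluster of 1402 neuronal nuclei led by C1ql2, Chst9 and Glis3, which no marker list named, carried high levels of several enzyme genes with a low Cnr1 level. It was picked out once its values were known, and it had nuclei in all 4 libraries (468, 566, 231 and 137). Its Dagla level was 186, 181, 169 and 161 CPM, its Faah level 170.1, 164, 127 and 148 CPM and its Napepld level 76.6, 67.8, 62.3 and 76.3 CPM. Cnr1 in the same cluster was 37.5, 39.9, 36.6 and 29.3 CPM, at or below the oligodendrocyte-like level of the cortex libraries and about level with that of the striatum libraries. Abhd6 stood at 95.6, 97.4, 102 and 93.9 CPM.

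That cluster was 39.0, 42.0, 3.35 and 2.32 percent of the unresolved neuron-like class, and class levels differed by region label too. Dagla in the class as a whole was 128, 118, 62.5 and 63.2 CPM, Faah 128, 114, 49.8 and 52.4 CPM and Napepld 31.9, 32.7, 18.1 and 18.5 CPM. Within the cluster the intervals of Dagla and of Napepld overlapped in all 4 libraries, while Faah in the striatum AAV-CTRL library lay below the cortex AAV-CTRL value with intervals apart. The part of the cluster's share in the class levels was not tested.

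The 7 genes did not share one pattern across the 95 class and library profiles. Pearson's r of log2(CPM + 1) between pairs of members ran from -0.31 for Cnr1 and Napepld to 0.40 for Dagla and Faah. Profiles of one library share its depth and background, so these values are descriptions. Among 13460 genes, the most similar profiles to Cnr1 were those of Ptprn (r = 0.73), Syn2 (0.70) and Rbfox3 (0.68). For Daglb they were the microglial genes Havcr2 (0.72), P2ry12 (0.72) and Siglech (0.72). P2ry12 and Siglech were on the marker list that named microglia-like nuclei, so this likeness restates the high Daglb level of that class.

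For Mgll the nearest profiles were Slc1a2, the astrocyte glutamate transporter (0.50), Ostm1 (0.49) and Tspan7 (0.48), the weakest likeness of any member. Slc1a2 was likewise on the marker list that named astrocyte-like nuclei. Dagla was closest to Kcnma1 (0.79), Cap2 (0.76) and Kalrn (0.74), and Faah to Kcnj6 (0.76), Khdrbs3 (0.75) and Kcnh7 (0.72). Napepld was closest to Tanc1 (0.66), Ptpn3 (0.54) and Trpm6 (0.53), and Abhd6 to Gramd1b (0.70), Kcnk1 (0.67) and Gm15083 (0.63).

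The study's main question, what AAV-VEGF-C changes in brain cells, was first put to all kept nuclei of a library. Cnr1 was at 99.5, 109, 49.7 and 46.6 CPM, Dagla at 92.0, 83.1, 61.6 and 65.3 CPM and Daglb at 40.3, 39.9, 33.0 and 35.8 CPM. Levels of the breakdown genes were 154, 152, 75.4 and 73.3 CPM for Mgll, 73.7, 70.7, 61.8 and 60.7 CPM for Abhd6 and 83.2, 77.7, 46.9 and 48.6 CPM for Faah, and Napepld was at 17.0, 18.2, 24.5 and 27.4 CPM. Each AAV pair lay close together, and the 2 region labels lay further apart.

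None of the 7 genes passed 1.5-fold between AAV labels under either region label. Among all genes with at least 50 UMIs over the pair, 2.44% of 18621 passed it under the cortex label and 4.36% of 19079 under the striatum label. The log2 ratio of AAV-VEGF-C over AAV-CTRL for Cnr1 was 0.13, 95% interval 0.077 to 0.18, under the cortex label and -0.093, 95% interval -0.17 to -0.020, under the striatum label. For Dagla it was -0.15, 95% interval -0.20 to -0.092, and 0.084, 95% interval 0.021 to 0.15. The largest of the 14 ratios was that of Napepld under the striatum label, 0.16, 95% interval 0.060 to 0.26. The median over the 7 genes was -0.02 and 0.05, against -0.01 and 0.00 over all genes tested. Several intervals left out 0, but they hold no spread between mice or libraries.

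With class proportions held fixed, the AAV ratio of Cnr1 was 0.049 under the cortex label and 0.026 under the striatum label. The fixed mix covered 25 and 21 classes with 86.0 and 79.5 percent of UMIs, and it left out classes under 50 nuclei in a library, among them Sncg and Cck interneuron-like nuclei. Over the same classes with the mix as found, the ratio of Cnr1 was 0.084 and -0.067. The fixed-mix ratios of Dagla were -0.14 and 0.098, about the same as without fixing.

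**Figure D4:**
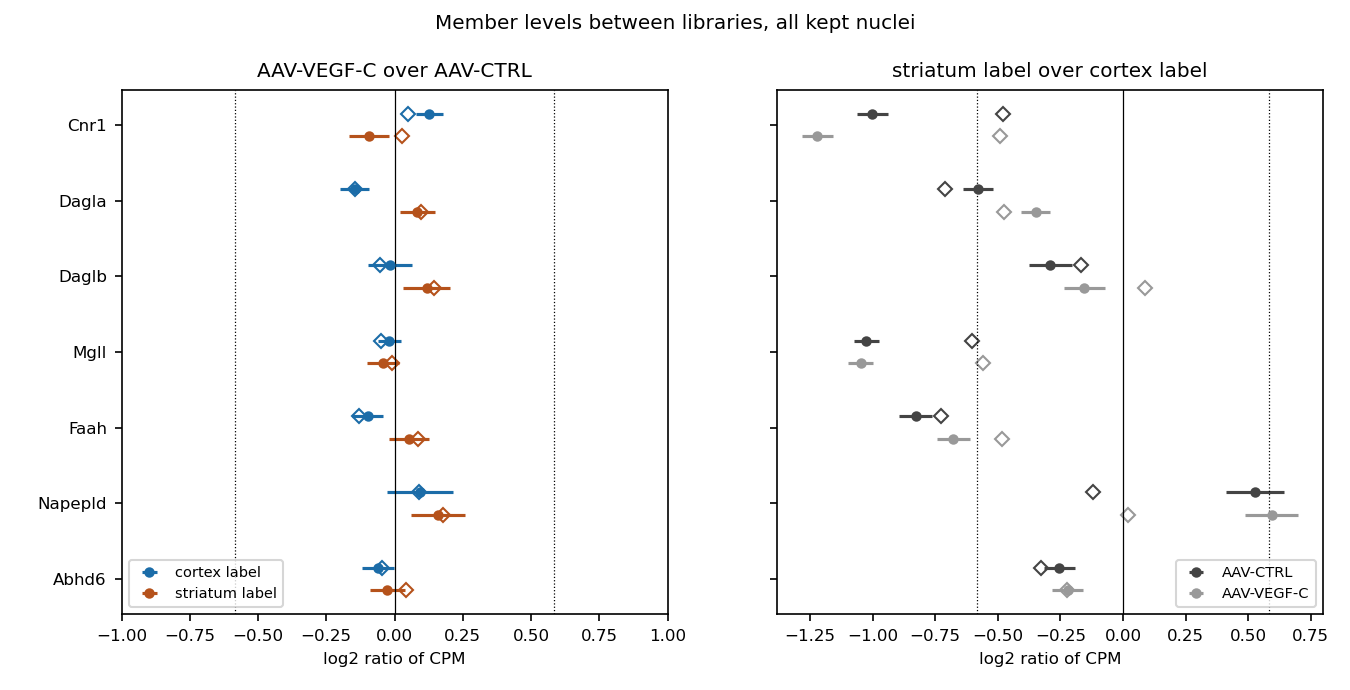
Log2 ratios of CPM over all kept nuclei, AAV-VEGF-C over AAV-CTRL by region label (left) and striatum over cortex label by AAV label (right), with exact conditional 95% intervals for filled circles. Open diamonds give the ratio at a fixed class mix, dotted lines mark 1.5-fold, no AAV ratio reaches them, and the region ratios of Cnr1 and Mgll lie between -1.22 and -1.001, and between -0.60 and -0.48 at the fixed mix.

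Within classes, 123 member and class values under the cortex label had at least 50 UMIs over the pair, and 4 of them passed 1.5-fold between AAV labels, 2 higher and 2 lower with AAV-VEGF-C. Over all genes and classes 5.35% of values passed it, so the share of the members was near the background. Under the striatum label 5 of 94 passed, 2 higher and 3 lower, against 6.89% over all genes. No gene passed in the same class under both labels.

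Cnr1 in cerebellar granule neuron-like nuclei gave the lowest of the Cnr1 ratios within classes. It was at 256 and 117 CPM between the AAV labels of the striatum libraries (log2 -1.14, 95% interval -1.81 to -0.50), over 148 and 130 nuclei. Faah in endothelial-like nuclei was at 24.4 and 9.64 CPM (log2 -1.34, 95% interval -2.29 to -0.47), and Mgll in fibroblast-like nuclei at 56.2 and 34.8 CPM (log2 -0.69, 95% interval -1.29 to -0.13). Dagla and Daglb in D2-type SPN-like nuclei passed on the higher side, at log2 0.62 and 0.61 with intervals that held 0. Counted at any fold over the 94 values of the striatum label, 6 intervals lay above 0, 3 of Mgll and 1 each of Dagla, Napepld and Abhd6. Below 0 there were 4, 2 of Cnr1 and 1 each of Mgll and Faah.

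Under the cortex label, Faah in GABAergic neuron-like nuclei of no subtype was at 69.2 and 36.4 CPM (log2 -0.93, 95% interval -1.66 to -0.22). Daglb and Napepld in endothelial-like nuclei and Mgll in choroid plexus-like nuclei also passed 1.5-fold, all with intervals that held 0. Counted at any fold over the 123 values of the cortex label, 3 intervals lay above 0, all of Cnr1. Below 0 there were 10, 3 each of Mgll and Faah, 2 of Dagla and 1 each of Daglb and Cnr1. The share of such intervals over all genes is not given here for either label. Below 1.5-fold, Cnr1 moved in both directions. Of 19 classes with enough UMIs of Cnr1, 3 had intervals above 0 and 1 below, and the highest log2 ratio was 0.57. Among the 3 higher with AAV-VEGF-C were Lamp5 and Ndnf interneuron-like nuclei (log2 0.44, 95% interval 0.097 to 0.80) and D1-type SPN-like nuclei (log2 0.22, 95% interval 0.091 to 0.36). Cnr1 was lower in Vip interneuron-like nuclei (log2 -0.32, 95% interval -0.58 to -0.056).

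Under the cortex label, the difference in Lamp5 and Ndnf interneuron-like nuclei lay mostly in 1 cluster, led by Npy, Kit and Pde11a. It had 206 and 314 CPM of Cnr1 over 113 and 126 nuclei (log2 0.61, 95% interval 0.25 to 0.97). In D1-type SPN-like nuclei the larger cluster had a log2 ratio of 0.16, 95% interval 0.027 to 0.30, and it held 76.5 and 81.8 percent of the class. Dagla in Rorb-type excitatory neuron-like nuclei was at 127 and 94.4 CPM, a log2 ratio of -0.43, 95% interval -0.59 to -0.27, over 882 and 1110 nuclei. Mgll in telencephalic astrocyte-like nuclei, its highest class, had a log2 ratio of -0.14, 95% interval -0.24 to -0.038, and Daglb in microglia-like nuclei -0.32, 95% interval -0.62 to -0.018. Under the striatum label the Daglb ratio of microglia-like nuclei was 0.16, 95% interval -0.19 to 0.51. These ratios have no replicate check.

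Region labels separated the members far more than AAV labels did. With AAV-CTRL, the log2 ratio of striatum over cortex was -1.001, 95% interval -1.06 to -0.94, for Cnr1, -1.03, 95% interval -1.08 to -0.98, for Mgll and -0.83, 95% interval -0.89 to -0.76, for Faah. With AAV-VEGF-C the same genes had -1.22, -1.05 and -0.68. Napepld was higher instead, at 0.53, 95% interval 0.41 to 0.64, with AAV-CTRL and 0.59, 95% interval 0.49 to 0.70, with AAV-VEGF-C. Past 1.5-fold there were 3 lower and 0 higher members with AAV-CTRL, and 3 lower and 1 higher with AAV-VEGF-C, while 28.1% and 28.5% of all genes passed it. These calls depended on the processing. With median-of-ratios size factors, 4 lower and 0 higher members passed with AAV-CTRL, Dagla being added, and 3 lower and 0 higher with AAV-VEGF-C. At the fixed class mix described next, 3 lower members passed with AAV-CTRL (Dagla, Mgll and Faah) and 0 of the 7 with AAV-VEGF-C. The shares of all genes under these alternatives are not given here, so these counts have no background.

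The medians of the 7 genes were -0.58 and -0.35, against 0.18 and 0.20 over all genes tested. Scaling by median-of-ratios size factors instead of totals shifted every region ratio by -0.18 and -0.19, about that all-gene median, and left the direction of each member as it was. At a fixed class mix over 17 classes, which held 69.0 and 69.4 percent of UMIs, the ratios of Cnr1 were -0.48 and -0.49, and those of Mgll -0.60 and -0.56. Over the same classes with the mix as found they were -1.005 and -1.13 for Cnr1, and -1.13 and -1.17 for Mgll. Napepld lay near 0 at the fixed mix, at -0.12 and 0.019, and Daglb stood at -0.17 and 0.088. The ratio of Dagla was farther from 0 at the fixed mix, at -0.71 and -0.48 against -0.58 and -0.35 over all nuclei, and it was -0.70 and -0.55 over the same classes with the mix as found. That of Abhd6 was -0.33 and -0.22, against -0.25 and -0.22.

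Within classes, 31 of 79 member values with AAV-CTRL passed 1.5-fold between region labels, 27 of them lower in striatum, against 22.1% over all genes and classes. With AAV-VEGF-C it was 30 of 81, 25 of them lower, against 23.0%. Cnr1 gave 10 of these in each comparison, among them oligodendrocyte-like nuclei (log2 -1.251, 95% interval -1.53 to -0.97, with AAV-CTRL) and microglia-like nuclei (log2 -0.79, 95% interval -1.46 to -0.15). Slc17a7 moved the same way in oligodendrocyte-like nuclei, at 477, 479.7, 48.3 and 36.7 CPM. Its part in the difference in glial classes was not tested.

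Of 24 other genes of the pathway, 22 had enough UMIs between AAV labels under the cortex label and none passed 1.5-fold. Under the striatum label 1 of 20 did, the lipid carrier gene Fabp7, at 10.7, 7.58, 28.0 and 15.3 CPM in the 4 libraries (log2 -0.87, 95% interval -0.99 to -0.76). An unnamed cluster with Fabp7 among its leading genes had 32, 1, 79 and 1 nuclei, so Fabp7 moved with it, and its part was not tested. Over all genes 2.44% passed under the cortex label and 4.36% under the striatum label, so 1 of 20 was near the background. The medians over the pathway genes were -0.04 and 0.01.

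By role, the receptor genes Cnr2 and Trpv1 had few UMIs, with Cnr2, the CB2 gene, at 26, 32, 27 and 21 UMIs and Trpv1 at 11, 14, 15 and 19 UMIs in the 4 libraries. The CB1 partner genes Cnrip1 and Sgip1 were at 70.2 to 90.02 CPM and 462 to 489 CPM. Between region labels, 2 genes were higher and 2 lower with AAV-CTRL, and 6 higher and 3 lower with AAV-VEGF-C, of 21 in each. That is 19.0 and 42.9 percent of them, against 28.1 and 28.5 percent of all genes. With median-of-ratios size factors the counts were 2 higher and 2 lower, and 2 higher and 5 lower, and the all-gene shares at that scaling are not given here. Plcb4, a phospholipase C gene upstream of diacylglycerol, was higher at log2 1.40, 95% interval 1.36 to 1.44, with AAV-CTRL, and Plcb1 lower at -0.95, 95% interval -0.96 to -0.93. Ptgs2, the COX-2 gene that can oxidise 2-AG, was at 6.75, 5.31, 2.27 and 2.17 CPM, lower under the striatum label with either vector.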

How the data were processed

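UMI counts per gene and barcode were deposited by the authors as 10x matrices of 4 libraries (3′ chemistry, v3). The file headers name Cell Ranger 5.0.1, and the submitters' processing notes name Cell Ranger 5.1.1 and mm10. Annotation, intron counting and use of strand are not given in the sources used here. The 4 deposited matrices held 17168, 20370, 23724 and 17466 barcodes with at least 719 UMIs, and pairs of libraries shared 76 to 118 barcode sequences. The members and the lists were chosen with earlier results of these data known, and the class naming thresholds after clusters had been seen.

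Doublets were called with Scrublet at an expected rate of 8% (4.31 to 7.95% of barcodes called), and 18 clusters with 40% or more called nuclei were left out as well. Nuclei were clustered with scanpy 1.11.5 and leidenalg 0.10.2 (5000 variable genes, 50 components, 15 neighbours, resolution 1.2), with neurons and other groups clustered again, giving 107 clusters. The members and pathway genes were not used. Most class names needed at least 3 markers and 50% of the list, each at 2-fold or more, and a mean log2 fold of 1.3. Excitatory and GABAergic neuron-like nuclei of no subtype needed only 3 markers of their general list at that fold. The unresolved neuron-like class took the neuronal clusters left over after these rules. Levels are UMIs scaled to a total of 1000000 (CPM) in a class or library, for classes of at least 50 nuclei, with exact Poisson 95% intervals, and ratios have exact conditional binomial intervals. A count of 1.5-fold changes used features with at least 50 UMIs over the pair. Shares of nuclei were also given after thinning to 1000 UMIs. UMIs are counts of molecules, and the intervals cover counting error only. No test was made, because each group had 1 library of 5 pooled mice. The ratio method was checked on simulated data. All 7 members, 24 pathway genes and, for each member, the 3 genes of most similar profile are named. Cluster levels and classes under 50 nuclei were read after seeing the data. Positions are those of GENCODE vM21 on GRCm38. Alternatives were another scaling, thinning, a fixed class mix, all barcodes, other thresholds and resolution 0.8.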

Additional observations from a re-analysis of the deposited data

Results flagged for a closer look

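For 2 of the genes the AAV ratio took opposite directions under the 2 region labels, and the difference was not tested, since each ratio rests on 1 library per group. For Cnr1 the log2 ratio under the striatum label minus that under the cortex label was -0.22, with -0.093 and 0.13 as its parts. At a fixed class mix both parts were above 0, at 0.026 and 0.049. For Dagla the difference was 0.23, with 0.084 under the striatum label and -0.15 under the cortex label, and these kept their directions at the fixed mix (0.098 and -0.14). Both libraries of a vector came from the same pooled mice.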

How the results depend on the processing

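No AAV ratio of a member reached 1.5-fold under any alternative run over all kept nuclei, and the counts of 0 stayed at 0. AAV ratios moved beyond their counting interval in 7 cases. At a fixed class mix these were Cnr1 (0.049 cortex, 0.026 striatum) and Abhd6 (0.043 striatum). With nuclei thinned to 1000 UMIs they were Cnr1 (0.031 cortex, -0.17 striatum), Dagla (-0.032 cortex) and Daglb (-0.13 cortex). Within D2-type SPN-like nuclei under the striatum label, thinning turned the AAV ratio of Dagla to -0.50 and that of Daglb to -0.28. Region ratios depended more on the processing. At the fixed class mix they were, with AAV-CTRL and AAV-VEGF-C, -0.48 and -0.49 for Cnr1, -0.71 and -0.48 for Dagla, -0.17 and 0.088 for Daglb, -0.60 and -0.56 for Mgll, -0.73 and -0.48 for Faah, -0.12 and 0.019 for Napepld, and -0.33 with AAV-CTRL for Abhd6. With median-of-ratios size factors they were -1.18 and -1.41 for Cnr1, -0.75 and -0.53 for Dagla, -0.47 and -0.34 for Daglb, -1.20 and -1.23 for Mgll, -1.004 and -0.86 for Faah, 0.35 and 0.41 for Napepld, and -0.43 and -0.41 for Abhd6. Thinning gave -1.08 for Cnr1 with AAV-CTRL and, with AAV-VEGF-C, -0.50 for Dagla, -0.071 for Daglb, -0.76 for Faah and 0.41 for Napepld. At a lower fold threshold, 5 members passed between region labels with AAV-CTRL in place of 3, and at the fixed class mix 0 passed with AAV-VEGF-C in place of 4. All-gene shares at these settings are not given here. Over the classes of the fixed mix with the mix as found, an alternative chosen after seeing the data together with the counts of calls under other scalings, mixes and depths, region ratios with AAV-CTRL and AAV-VEGF-C were -0.33 and -0.28 for Abhd6, -0.70 and -0.55 for Dagla, -1.13 and -1.17 for Mgll, 0.28 and 0.32 for Napepld and, with AAV-VEGF-C, -1.13 for Cnr1 and -0.047 for Daglb. The cause of these moves was not tested. At resolution 0.8, 96.9% of nuclei kept their class name, and the highest class of each member was the same. Thinning moved 153 of 665 class levels and 50 of 219 AAV ratios within classes beyond their counting intervals (besides the 2 it turned), and changed the highest class of Faah to upper layer excitatory neuron-like nuclei. Napepld, at 989 to 1689 UMIs per library, was the least precise. The libraries of a vector share pooled mice, so region ratios are given within each pool; no paired test was made, since the 2 pools differ in vector and the labels carry no replicate numbers.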
